A study of Mus musculus with 66 samples.

Results

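The E2F transcription factors are the 8 genes E2f1 to E2f8. Their rows were taken by gene symbol from a table of mRNA-Seq levels that lists 22489 genes, and all 8 were found. The table holds 20 libraries of C2C12, a mouse myoblast cell line that fuses into myotubes when serum is withdrawn. Each of 10 lines gave 1 growth and 1 differentiated library. The line called WT carried no GFP-tagged histone, and each of the 9 others expressed a single GFP-tagged H3 variant: H3mm16, H3mm13, H3mm12, H3mm11, H3mm7, H3.3, H3.2, H3.1 or H3t. The columns labelled H3mmT were taken to be the H3t line. The tagged genes were under a doxycycline-inducible promoter, and the cells were selected with G418 and sorted for GFP, as 1 line per variant. A variant therefore cannot be told apart from the line that carries it. Growth cells were kept in 20% fetal bovine serum and harvested before they were confluent. Differentiated cells were confluent and had spent 48 h in 2% horse serum, so serum, cell density and differentiation cannot be told apart. Levels are FPKM, fragments scaled to the length of the transcript and to the mapped reads of the library, as the authors calculated them. Read depth was not given in the sources used here.

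E2F proteins bind the promoters of genes needed for DNA replication and cell division. E2F1, E2F2 and E2F3 activate these genes when the retinoblastoma protein, RB1, lets go of them at the end of G1. E2F4 and E2F5 mostly repress the same genes in resting cells, together with the pocket proteins p107 (Rbl1) and p130 (Rbl2). E2F6 does not bind pocket proteins and works with Polycomb proteins, and the atypical factors E2F7 and E2F8 repress late in S phase without a DP partner. When myoblasts become myotubes they leave the cell cycle for good, and RB1 is known to be needed for that exit.

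Several E2F genes are known targets of E2F proteins. RefSeq promoter windows (mouse build GRCm38.p6, 250 bases before to 50 bases after a start) were at hand for 6 of the 8 genes, 8 windows in all. They were searched on both strands for the words TTTCCCGC, TTTCGCGC, TTTGCCGC and TTTGGCGC, common forms of the E2F site. Of all 32851 windows of the same length, 2.26% held a word. Of the 8 E2F windows 3 did, 1 each of E2f7, E2f3 and E2f2, and in none of these did words overlap. The stretches around these words are shown because E2f7 and E2f2 are the genes that moved furthest in opposite directions below. Each reads 5′ to 3′ on the strand of its gene, with the word, or its reverse complement, in capitals.
E2f7, chr10:110745215-110745274, plus strand, word at bases -198 to -191 from the start: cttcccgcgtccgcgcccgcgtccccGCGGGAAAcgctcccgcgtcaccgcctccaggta
E2f3, chr13:29986064-29986100, minus strand, word at bases -11 to -4: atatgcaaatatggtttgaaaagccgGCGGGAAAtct
E2f2, chr4:136172302-136172323, plus strand, word at bases 40 to 47, after the start: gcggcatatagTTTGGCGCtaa
The windows of E2f1, E2f6 and E2f8, and a second window each of E2f2 and E2f3, did not hold these letters. A match is a description of the sequence and was not linked to binding here.

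Myotube markers were higher and proliferation markers lower in the differentiated libraries than in the growth ones. Desmin (Des), an intermediate filament of muscle cells, was between 165 and 497 FPKM in the growth libraries and between 378 and 1273 in the differentiated ones. Myogenin (Myog), which drives myotube formation, had a mean of 8.95 ± 7.07 FPKM (SD, n = 10) in growth and 648 ± 300 in differentiated cells. All 6 myotube markers rose, with a median of 7.38 on the log2 scale, as did 2 of 4 myoblast markers (Des and Cdh15). Of all genes tested, 30.5% were higher. Myod1 and Myf5 did not pass. Over the growth libraries Myod1 ran from 1.61 to 110 FPKM and Myf5 from 25.3 to 64.9, so myoblast markers were uneven over the growing lines. Among 15 markers of adipocytes, osteoblasts, immune, endothelial and epithelial cells the highest value in any library was 7.53 FPKM, of Cdh5, and only Cdh5 and Fabp4, which were lower after differentiation, and Cd68, which passed only without H3mm7 (limma adjusted p = 0.00860), reached the level for testing described below. The proliferation marker Mki67 had a mean of 39.9 ± 5.23 FPKM in growth and 2.23 ± 2.43 in differentiated cells. The WT libraries stood apart. Their FPKM summed to between 409319 and 465247, against 583613 to 894105 in the GFP-H3 libraries, and Gapdh was at most 0.361 FPKM in WT and at least 783 elsewhere. Of 75 ribosomal protein genes at 10 FPKM or more in every GFP-H3 library, 8 were under 1 FPKM in both WT libraries. Genes picked this way can only be low in WT, and the reverse was not counted. Whether the WT values were made with the same gene annotation was not given in the sources used here, so levels in WT may not be on the same footing as those of the other lines. In bulk libraries like these, fewer cells of a kind and less RNA per cell cannot be told apart.

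In the growing cells all 8 E2F genes were expressed. The SD over lines on the log2 scale was at most 0.208 for 7 of them and 0.297 for E2f2, where the median gene tested had 0.241. E2f4 had the highest mean level, 32.2 ± 4.87 FPKM (SD, n = 10), followed by E2f1 at 25.8 ± 3.16, E2f8 at 20.4 ± 2.09, E2f6 at 19.9 ± 2.30, E2f7 at 16.1 ± 1.08, E2f3 at 12.6 ± 1.13, E2f5 at 10.0 ± 1.52 and E2f2 at 4.64 ± 1.11. E2f4 was above E2f1 in 9 of 10 lines, the exception being WT. E2f8 and E2f6 could not be ordered, with E2f8 higher in 5 of 10 lines. Every other neighbouring pair held its order in 9 or 10 lines. The summed level of the family was 142 ± 4.61 FPKM and lay between 136 and 153 in every growth library.

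After differentiation the make-up of the sum differed, and its mean was lower, though not in every line by much. The sum was 104 ± 18.2 FPKM in the differentiated libraries, with the lowest value, 77.8, in H3mm11. The highest, 143, in WT, lay within the growth range of 136 to 153 and was close to the WT growth sum. The change in the sum was not tested. E2f4 had the highest level in 10 of 10 differentiated lines, and E2f6 was above E2f2, the next by mean, in 9. E2f4 held 36.0% ± 5.89 of the summed FPKM, against 22.8% ± 3.46 in growth, and E2f6 held 21.4% ± 2.86 against 14.0% ± 1.46. The share of E2f1 was 18.2% ± 2.08 in growth and 8.17% ± 2.64 in differentiated cells, while that of E2f2 was 3.28% ± 0.816 and 12.7% ± 4.99. E2f7 held 11.4% ± 0.697 in growth and 0.854% ± 0.914 after differentiation. The differentiated order by mean level was E2f4, E2f6, E2f2, E2f1, E2f5, E2f3, E2f8 and E2f7. The pairs E2f1 and E2f5, E2f5 and E2f3, and E2f3 and E2f8 were close, each holding its order in only 6 or 7 of 10 lines. E2f4 was above E2f6, and E2f8 above E2f7, in 10 of 10.

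**Figure D1:**
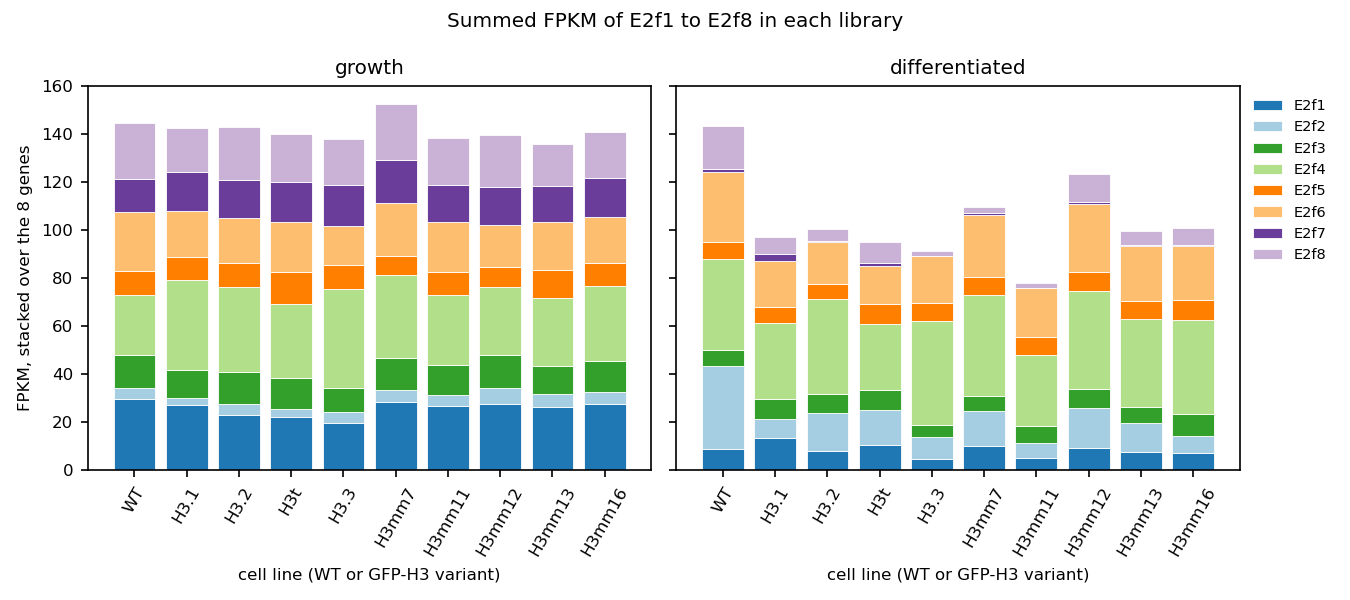
Stacked bars of the FPKM of E2f1 to E2f8 in each of the 20 libraries, growth on the left and differentiated on the right, on a linear axis from 0, with 1 bar per line and 1 colour per gene. The growth bars reach between 136 and 153 FPKM. The differentiated bars reach between 77.8 and 143, with E2f4 and E2f6 forming the largest blocks in the GFP-H3 lines and E2f7 barely visible.

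The change of each gene between the states was tested across all 10954 genes with a mean of at least 1 FPKM, on log2(FPKM + 1) with limma, and differences below are on that scale, which understates the change of genes at low levels. All 8 E2F genes entered the test. At an adjusted p under 0.05, 5 of them fell with differentiation (E2f1, E2f3, E2f5, E2f7 and E2f8), 1 rose (E2f2) and 2 did not pass (E2f4 and E2f6). Of all genes tested, 28.1% were lower and 30.5% were higher by the same rule. Counting only differences of at least 1, E2f1, E2f7 and E2f8 were lower and E2f2 was higher, where the background was 8.41% lower and 8.87% higher. The median difference was -0.54 over the 8 genes and 0.04 over all genes tested. How many of all genes tested moved 1 way in every line, or did not overlap between the states, was not counted here. Where these traits are given for a gene, they describe that gene only.

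**Figure D2:**
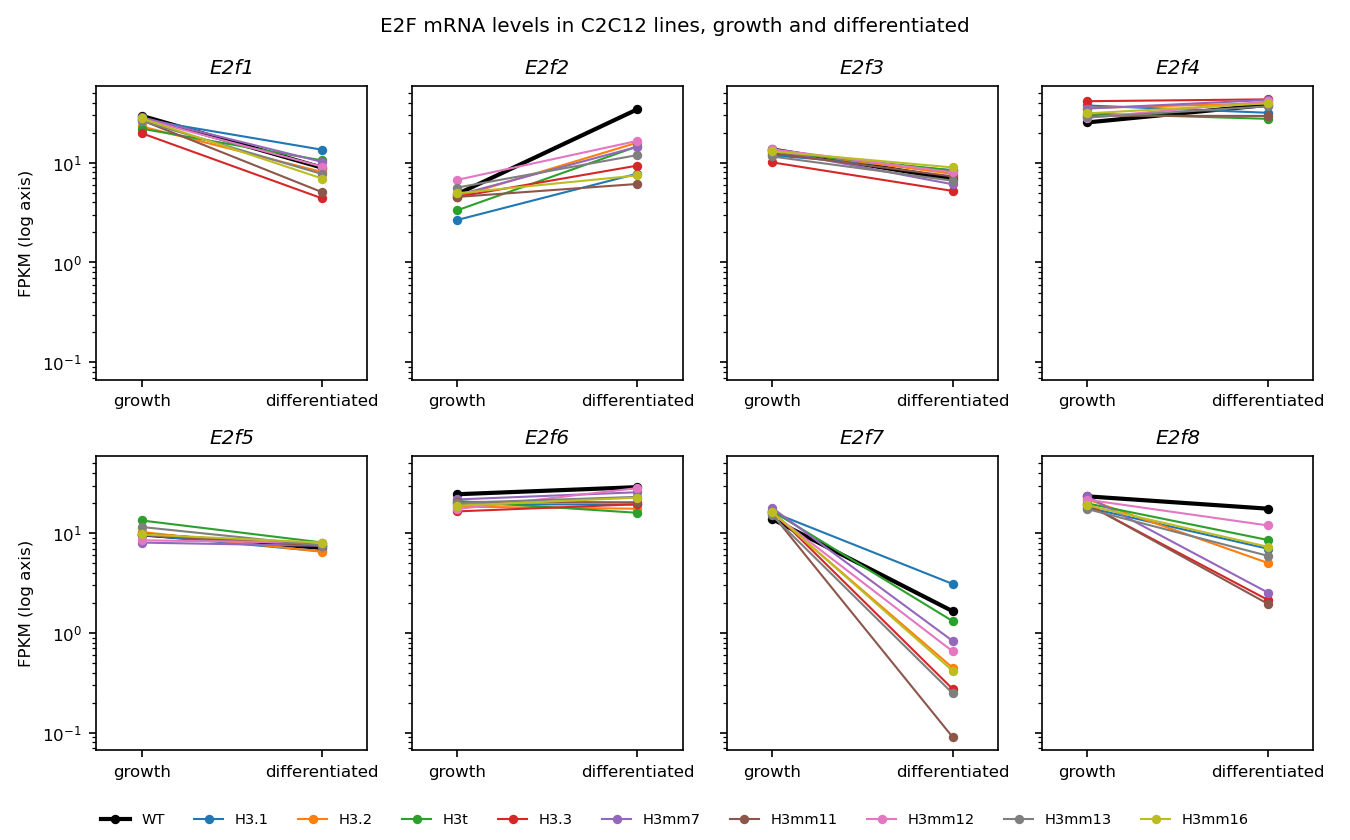
FPKM of each E2F gene on a shared log axis in growth and differentiated libraries, with a line joining the 2 libraries of each cell line and WT in black. E2f1, E2f3 and E2f7 fall in every line without overlap between the states, E2f2 rises in 10 of 10 lines, and E2f4 and E2f6 cross in both directions.

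Among the activators, E2f1 and E2f2 went opposite ways. E2f1 (chr2:154385143-154395628, minus strand, mouse build mm9) was between 19.7 and 29.5 FPKM in growth, with a median of 26.9, and between 4.39 and 13.5 in differentiated cells, with a median of 8.48. It was lower in 10 of 10 lines and the states did not overlap. The difference was -1.55 ± 0.143 (SE, limma adjusted p = 6.56e-09). H3.3 had the lowest E2f1 level in both states, and H3.1 kept the most after differentiation.

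E2f2 (chr4:135728309-135751972, plus strand) was between 2.66 and 6.71 FPKM in growth, with a median of 4.63. In differentiated cells it was between 6.12 and 34.3, with a median of 13.2. All 10 lines showed more E2f2 after differentiation, although the ranges overlapped between H3mm12 in growth and H3mm11 differentiated. The difference was 1.27 ± 0.220 (limma adjusted p = 4.17e-05), and 1.12 without WT. The rise was 7.12-fold in WT and 1.35-fold in H3mm11, and the 9 GFP-H3 lines all stayed at or below 16.5 FPKM. As a result of both changes, the ratio of E2f2 to E2f1 was at most 0.243 in each growth library and above 1 in 9 of 10 differentiated ones, H3.1 being the exception at 0.576.

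E2f3 (chr13:29998444-30077537, minus strand), which has more than 1 promoter and gives an activating and a shorter form that the table does not separate, ran from 10.1 to 13.6 FPKM in growth and from 5.21 to 8.96 afterwards. The medians were 12.97 and 7.51, and there was no overlap. The fall of 0.71 ± 0.085 on the log2 scale (limma adjusted p = 3.26e-07) was seen in 10 of 10 lines and varied little, with individual lines between -0.45 and -1.03 (H3.1 and H3mm7).

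E2f4 (chr8:107821563-107829269, plus strand) was between 25.3 and 41.3 FPKM in growth and between 27.5 and 43.1 in differentiated cells, with medians of 31.1 and 38.6. It was higher in 7 lines and lower in 3, namely H3.1, H3t and H3mm11. The difference of 0.19 ± 0.10 did not pass (limma adjusted p = 0.117), and its 95% interval ran from -0.02 to 0.395. WT had the lowest E2f4 of any growth library, and also the largest gain, 0.57.

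E2f5 (chr3:14578671-14606308, plus strand) fell by a small amount in 10 of 10 lines. Its growth levels ran from 8.05 to 13.4 FPKM around a median of 9.71, and its differentiated levels from 6.51 to 8.06 around 7.50. The ranges touched only at their edges, through H3mm7 in growth. The difference was -0.38 ± 0.077 (limma adjusted p = 2.59e-04), smallest in H3mm12 (-0.07) and largest in H3t (-0.67). E2f5 was the member that varied least over lines after differentiation, with an SD of 0.098 on the log2 scale, where the median gene tested had 0.337.

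E2f6 (chr12:16817771-16833549, plus strand), the Polycomb-linked repressor, was between 16.5 and 24.5 FPKM in growth and between 16 and 28.9 in differentiated cells, with medians of 19.8 and 21.5. The ranges overlapped, with differentiated WT (28.9), H3mm12 (28.3) and H3mm7 (25.7 FPKM) above every growth level. It was higher in 6 lines and lower in 4, and the difference of 0.13 ± 0.102 did not pass (limma adjusted p = 0.271, 95% interval -0.08 to 0.35). WT had the highest E2f6 in both states. H3mm12 gained the most, 0.67, and H3t lost the most, 0.37.

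The atypical repressors E2f7 and E2f8 were at similar levels in growth and separated after differentiation. E2f7 (chr10:110182495-110224440, plus strand) was between 13.9 and 18.0 FPKM in growth, with a median of 16.2, and between 0.0907 and 3.1 in differentiated cells, with a median of 0.552. The states did not overlap. The difference of -3.28 ± 0.180 (limma adjusted p = 2.65e-12) was the largest of the family, and it became -4.75 with a pseudocount of 0.01 FPKM. The fall was 5.25-fold in H3.1, 8.41-fold in WT and 172-fold in H3mm11, where E2f7 was close to 0 and a fold is poorly determined.

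E2f8 (chr7:56121799-56136966, minus strand) was between 17.5 and 23.4 FPKM in growth, with a median of 19.7. After differentiation it was between 1.96 and 17.6, with a median of 6.46. It was lower in 10 of 10 lines (-1.65 ± 0.264, limma adjusted p = 1.68e-05), but by very different amounts, and the WT differentiated level lay above the lowest growth level. In WT the level went from 23.4 to 17.6 FPKM, a 1.33-fold fall, and in H3mm12 from 21.6 to 11.95. In H3.3, H3mm7 and H3mm11 it ended at 2.15, 2.54 and 1.96 FPKM. The SD of the differentiated E2f8 levels over lines was 0.878 on the log2 scale, the widest of the family, against 0.140 in growth. The ratio of E2f8 to E2f7 was between 1.11 and 1.68 in growth and between 2.25 and 23.8 in differentiated cells.

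The levels of E2f7 in the 10 differentiated libraries had the same order as those of Mki67, from H3mm11 (0.0907 and 0.184 FPKM) to H3.1 (3.1 and 8.09 FPKM). Over these libraries Pearson's r on log2(FPKM + 1) was 0.983 and Spearman's rho was 1.0. E2f1 followed Mki67 less closely, with r = 0.801 and rho = 0.867. E2f8 had r = 0.533 and rho = 0.624, and E2f2 had r = 0.372 and rho = 0.491. Without WT, r was 0.982 for E2f7, 0.832 for E2f1, 0.405 for E2f8 and 0.132 for E2f2. H3.1, with the most Mki67, had 6.99 FPKM of E2f8, while H3mm12, with 1.51 FPKM of Mki67, had 11.95. H3mm7 had 1.99 FPKM of Mki67 and 2.54 of E2f8. For a score of 6 myotube markers, r was 0.647 for E2f8, 0.522 for E2f2 and -0.139 for E2f7, and WT and H3mm12 had the highest myotube scores as well as the most E2f8 and E2f2. Without WT the myotube values became 0.547, 0.352 and -0.338. The points share the scaling of their libraries and each line is a single culture, so the values are a description, and the differences between them were not tested. The pairs were chosen after the levels were seen.

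**Figure D3:**
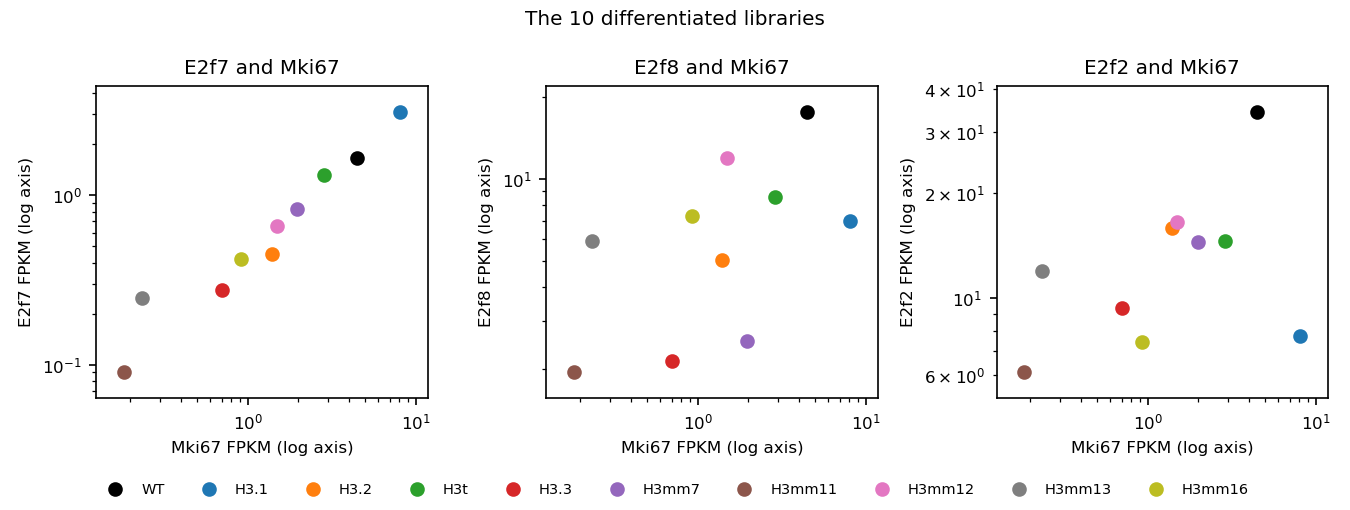
FPKM of E2f7, E2f8 and E2f2 against that of Mki67 in the 10 differentiated libraries, on log axes, with 1 point per line. The E2f7 points rise together with Mki67 from H3mm11 to H3.1. The E2f8 and E2f2 points scatter, with WT highest in both panels (17.6 and 34.3 FPKM).

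WT lay outside the range of the 9 GFP-H3 lines for several members. In growth, WT was above all 9 lines for E2f1 (29.5 FPKM against at most 28.5), E2f6 (24.5 against 21.8) and E2f8 (23.4 against 23.3), and below them for E2f4 (25.3 against at least 28.2) and E2f7 (13.9 against 15.1). After differentiation it was above all 9 for E2f2 (34.3 against at most 16.5), E2f6 (28.9 against 28.3) and E2f8 (17.6 against 11.95). Only the E2f2 gap was wider than the spread of the 9 lines. With 1 WT library per state there is no test, and the part played by the differences of the WT libraries given above, their low FPKM sum and the genes near 0, was not tested.

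The genes whose levels were most like each member over all 20 libraries were found by Pearson's r on log2(FPKM + 1) among the genes tested. E2f7 was nearest to 4930427A07Rik, Clspn and Ncapd2, with r of 0.997, 0.997 and 0.996; claspin acts at replication forks, and Ncapd2 is a condensin subunit. E2f1 was nearest to Ccne1, the gene of cyclin E1 (0.981), Clhc1 and Cenph. The nearest to E2f8 were Cdkn2c, Rrm2 and Rtkn2, from 0.954 to 0.941, and to E2f3 Wee1, Slbp and Cenpp, from 0.958 to 0.945. E2f2 had Isca2, Klhl13 and Rab40b (0.926 to 0.919), E2f5 had Nmt2, Hnrnpc and Ahctf1 (0.901 to 0.880), E2f6 had Poldip2, Rabl6 and Gnpat (0.843 to 0.812), and E2f4 had Orai1, Slc26a6 and Thop1, each at 0.801.

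Over the 10 differentiated libraries alone the lists changed. E2f7 kept cell division genes, namely Casc5 and Depdc1b (0.987 and 0.986) besides Mki67. E2f1 was nearest to Tk1, the thymidine kinase gene (0.934), Ccne1 (0.925) and Tcf19 (0.918). E2f8 was now nearest to Slc6a6, the taurine transporter gene (0.986), Tmem64 (0.985) and Pitpna (0.983), of which Tmem64 rose by 1.96 with differentiation. E2f2 was nearest to Slc25a16 (0.963), Tnfrsf22 (0.943) and Asb1 (0.942), E2f3 to Hmgb2 (0.899), Snapc5 (0.895) and Ankrd26 (0.883), E2f4 to Ehd1 (0.962), Rassf7 (0.949) and Hint2 (0.921), E2f5 to Gsdmd (0.880), Cnn1 (0.867) and Adcy7 (0.855), and E2f6 to Rabl6 (0.969), Ptp4a3 (0.948) and Cyc1 (0.931). Each is the top of 10954 genes, so high values arise from the search itself. Ranking by Spearman's rho gave none of the same 3 genes in 8 of the 16 lists and 1 in 7 of them.

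The partners and regulators of the family were examined from lists. Of the DP proteins, which pair with E2F1 to E2F6 to bind DNA, Tfdp1 fell from 118 ± 23.6 to 41.1 ± 7.52 FPKM (-1.49 ± 0.139, limma adjusted p = 8.07e-09). Tfdp2 went from 2.41 to 3.11 FPKM and did not pass (limma adjusted p = 0.118), although it did with the line as a block (adjusted p = 0.0192) and without H3mm7 (0.0453). WT had the lowest Tfdp1 in both states, 60.3 and 27.0 FPKM.

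All 3 pocket proteins changed, and not in 1 direction. Of these, 2 rose and 1 fell, where 30.5% of all genes tested were higher and 28.1% lower. Rb1 rose in 10 of 10 lines, from a mean of 8.92 ± 1.05 to 40.3 ± 14.6 FPKM (1.98 ± 0.169, limma adjusted p = 2.19e-09). Rbl2, the gene of p130, rose from 6.20 ± 0.997 to 10.3 ± 2.41 (0.63 ± 0.116, limma adjusted p = 7.63e-05). Rbl1, the gene of p107, fell from 15.5 ± 3.59 to 2.48 ± 1.23 (-2.29 ± 0.166, limma adjusted p = 1.57e-10). Rb1 ended highest in H3mm12 (63.4 FPKM) and lowest in H3mm7 (19.5 FPKM), and it did not overlap between the states.

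The MuvB core joins E2F4, p130 and DP in the DREAM repressor complex and B-Myb (Mybl2) in the cell cycle. Of these 6 genes, 3 were lower, 1 was higher and 2 did not pass, with a median of -0.49, against 28.1% lower and 30.5% higher of all genes tested. Mybl2 fell from 21.6 ± 4.89 to 0.779 ± 0.698 FPKM (-3.72), Lin9 by 1.76 and Lin54 by 1.14, and Lin52 rose by 0.43. Lin37 (0.26) and Rbbp4 (0.15) did not pass (limma adjusted p = 0.337 and 0.333), but both did with the line as a block (adjusted p = 0.00212 and 0.0375).

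Of 8 G1 cyclins and their kinases, 5 fell, 1 rose and 2 did not pass, with a median of -0.86, where 28.1% of all genes tested were lower and 30.5% higher. Cyclin D1 (Ccnd1) fell by 3.21, cyclin E1 (Ccne1) by 3.08 and cyclin E2 (Ccne2) by 2.92, while Cdk6 fell by 0.98 and Cdk4 by 0.74. Cyclin D3 (Ccnd3) was the one that rose, by 1.10, from 73.2 ± 19.2 to 165 ± 67.0 FPKM. Ccnd2 (0.46) and Cdk2 (-0.04) did not pass (limma adjusted p = 0.256 and 0.888), and Ccnd2 did with the line as a block (adjusted p = 0.0304).

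Among the inhibitors of these kinases, 3 of 7 genes reached the level for testing. Cdkn1a, the gene of p21, rose by 3.32 ± 0.210 (limma adjusted p = 1.92e-11), from 68.7 ± 17.2 to 724 ± 298 FPKM, and its highest differentiated level was in WT. Cdkn1b, the gene of p27, rose by 0.48 (limma adjusted p = 0.0400), a call that was lost in 9 of 18 other settings, where the adjusted p reached 0.0828. Of the lines left out singly, the call held without WT, H3.3 or H3mm7 and was lost without any of the others. Cdkn2c, the gene of p18, fell by 1.24 (limma adjusted p = 1.99e-05). Cdkn2a was listed at 0 in all 20 libraries, and Cdkn2b in 19.

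A list of 24 genes that E2F proteins are known to drive at the start of S phase was examined. It was chosen with earlier results of these data known, and it leaves out the E2F genes themselves. All 24 were tested and were lower, each by at least 1, with a median difference of -2.80. For all genes tested, 28.1% were lower and the median was 0.04. The largest falls were those of Tk1 (-4.49 ± 0.349), which went from 120 ± 24.0 to 5.95 ± 6.13 FPKM, and the replicative helicase gene Mcm5 (-4.39 ± 0.344), which went from 72.3 ± 9.71 to 3.57 ± 3.45. The smallest were those of the ribonucleotide reductase gene Rrm1 (-1.70 ± 0.162) and the Polycomb methyltransferase gene Ezh2 (-1.77 ± 0.109). The 6 proliferation markers fell with them, with a median of -4.36, so cells leaving the cycle and lower transcription per cell cannot be told apart. E2f7 and Mybl2 were the only genes among the E2F family and the MuvB list to fall by more than this list's median.

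Genes that E2F1 is known to induce in apoptosis moved in both directions. Pmaip1, the gene of Noxa, rose by 1.67 ± 0.233, from 11 ± 3.37 to 39.5 ± 20.6 FPKM, Bbc3, the gene of Puma, by 1.29 ± 0.185, and Bcl2l11, the gene of Bim, by 0.93 ± 0.183. Apaf1, which forms the apoptosome, fell by 0.37 ± 0.120 (limma adjusted p = 0.0111). Trp73 stayed below the level for testing.

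The partners of E2F6 in the variant Polycomb complex PRC1.6 were called about as often as genes in general. Of 11 genes, 3 rose, 3 fell and 5 did not pass, with a median of -0.08, where 30.5% of all genes tested were higher and 28.1% lower. Rybp (0.94), Ring1 (0.58) and Rnf2 (0.42), which belong to the ubiquitin ligase part, were higher, and L3mbtl2 (-0.96), Ehmt2 (-0.30) and Ehmt1 (-0.23) were lower. The call for Ehmt2 (limma adjusted p = 0.0319) was lost without H3.3 (0.0587), H3mm7 (0.0711) or H3mm13 (0.0616). Mga, Pcgf6 and Max, the DNA-binding and core subunits, differed by 0.02, 0.05 and -0.08. The 2 WT libraries had Cbx3 at 4.28 and 3.65 FPKM, far below the other lines, and Cbx3 (-1.12, limma adjusted p = 0.0999) passed only without WT (1.18e-05) or with the line as a block (2.96e-06). The block also brought in Yaf2 (adjusted p = 0.0144), for 5 genes lower. The 5 germline genes known to be silenced through E2F6, such as Stag3 and Smc1b, were at most 0.0346 FPKM in any library, and none entered the test.

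**Figure D4:**
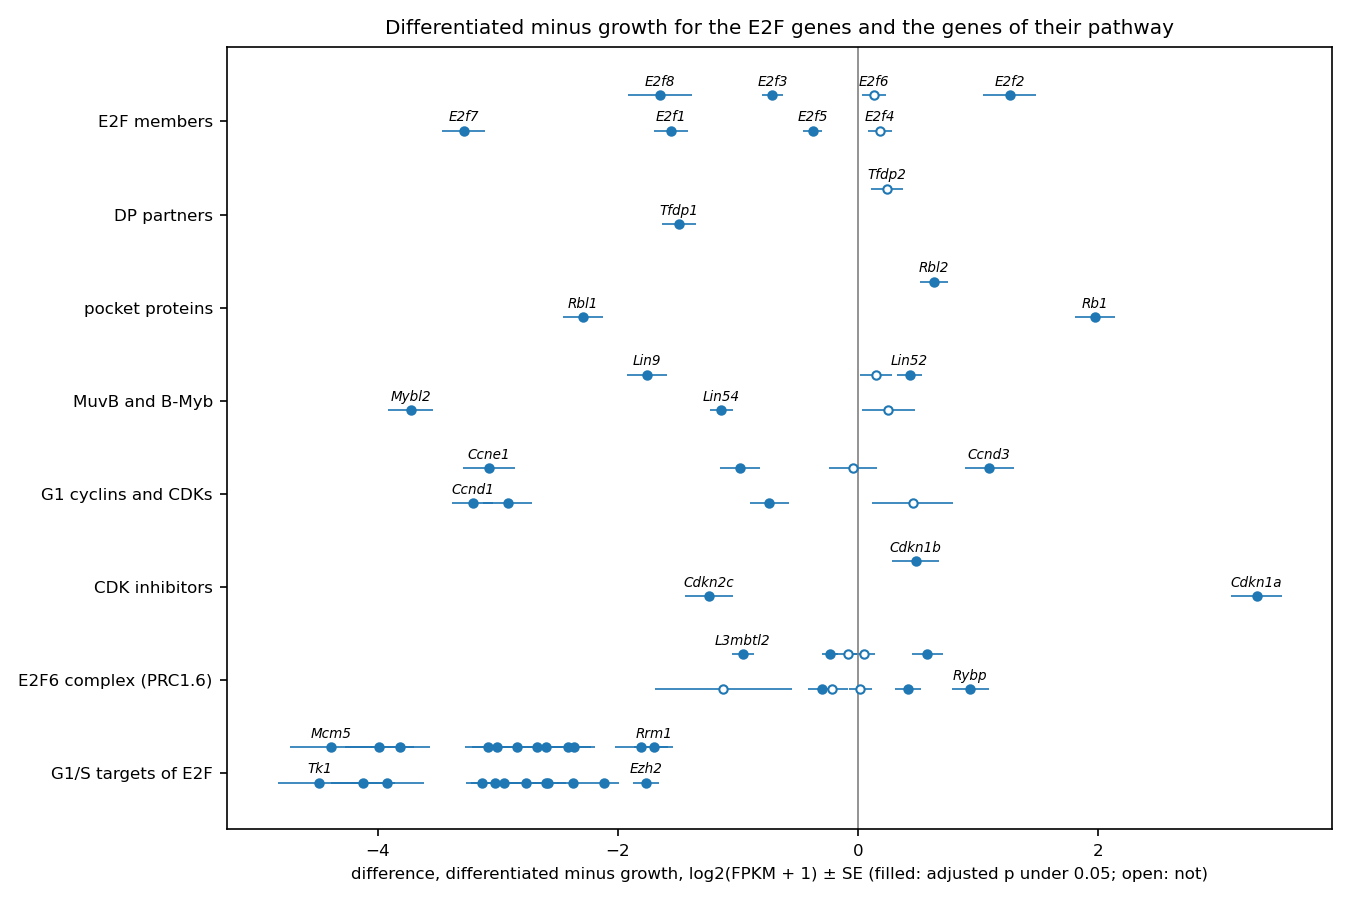
Difference between differentiated and growth libraries on log2(FPKM + 1), with its SE, for each tested gene of the E2F family and of 7 lists of their pathway. Filled points passed an adjusted p of 0.05 and open points did not. The 24 targets of the S phase list all lie left of 0, while the E2F genes and pocket proteins lie on both sides of it.

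The nearest protein-coding genes on either side, among those with mRNA-Seq levels, moved with some members and against others. By the rule used above, 30.5% of all genes tested were higher and 28.1% lower, so a neighbour that moved is not unusual. Id3, an inhibitor of myogenic factors that lies 26638 bases upstream of E2f2, fell by 3.46 ± 0.361 (limma adjusted p = 4.94e-08), and Asap3 on the other side of E2f2 did not pass (0.14, limma adjusted p = 0.385). Csrp3, the gene of muscle LIM protein, lies 18398 bases beyond the 3′ end of E2f8 and rose by 4.06 ± 0.289 (limma adjusted p = 1.24e-10), from 0.0924 to 20.8 FPKM, while Nav2 on the far side did not pass (0.20). Csrp2 and Nav3, which flank E2f7 at 132791 and 745219 bases, fell by 1.28 and 1.51. Next to E2f1, Pxmp4 rose by 1.27, and Necab3 was below the level for testing at 0.402 and 0.157 FPKM. Next to E2f3, Mboat1 fell by 1.50 and Cdkal1 did not pass (-0.13). Next to E2f4, Exoc3l rose by 2.65, from 0.546 to 9.26 FPKM, and Elmo3, 231 bases downstream, was below the level for testing. Lrrcc1, before E2f5, fell by 0.66, and near E2f6 Rock2 did not pass (0.13) and Greb1 was not tested. The 3′ ends of E2f5 and 1810022K09Rik lie 11 bases apart on opposite strands. 1810022K09Rik had means of 262 and 286 FPKM, and strand-specific counting was not given in the sources used here, so reads at that end cannot be told apart. The same holds for E2f3 and E2f8, which noncoding genes on the opposite strand overlap (Gm11365 and Gm2788, not analysed here).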

How the data were processed

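Libraries were made by the submitters from total RNA, following an Illumina protocol. Per the labels, reads were aligned with TopHat2 2.0.8 to mm9, and FPKM values were obtained with Cuffdiff (Cufflinks 2.0.1). The deposited table gives 1 FPKM value per gene and library with no counts, so depth is unknown and no counting interval was computed. The 3′-seq tables were not used, as they gave no E2F gene here.

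Values were taken as log2(FPKM + 1) for 10954 genes with a mean of at least 1 FPKM. Differentiated and growth libraries (10 each) were compared with limma 3.58.1 (R 4.3.3, trend and robust variance, statmod 1.5.0) and Benjamini-Hochberg adjustment over all genes tested, after a check on simulated data. A gene was called at an adjusted p under 0.05. The 2 libraries of a line come from the same cell line and deviated together (r of 0.273 to 0.877 over genes), so a fit with the line as a block was an alternative. Values from 1 line differ from those of another by culture as well as variant, so p-values measure the spread over these lines.

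The genes named were all members, the genes of 18 lists (of lists over 8 genes, the 2 largest differences in each direction first), the 3 genes most like each member, the nearest annotated neighbours (mm9, GENCODE) and any gene said to be chosen later. A neighbour was taken only if it was protein-coding and had mRNA-Seq levels, so a nearer gene without them would be passed over. Some list genes are not reported here. The members and lists were chosen with earlier results of these data known. Promoter sequences are from RefSeq (GRCm38.p6), and positions of genes from mm9. Python 3.11.15 was used for the rest.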

Additional observations from a re-analysis of the deposited data

Results flagged for a closer look

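Values that stood apart from the other 9 libraries of their state were looked for in the 8 E2F genes and the tested genes of their pathway lists, 130 groups of 10 libraries in all. Dixon's ratio, the gap to the nearest library over the whole range, was above its 95% critical value for 14 values. Chance flags about 1 group in 20.

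Among the E2F genes, E2f2 in the differentiated WT library (34.3 FPKM) was flagged, with a ratio of 0.630, as was E2f7 in the differentiated H3.1 library (3.1 FPKM), with 0.481. WT also gave Tfdp1 in growth (60.3 FPKM, low), Rbl1 in growth (24.5 FPKM, high), Pcna differentiated (32.4 FPKM, low), Tk1 in growth (55.9 FPKM, low) and Uhrf1 in growth (52.7 FPKM, low), so that 6 of the 14 values were WT libraries. Differentiated H3.1 cells gave 4, all of them high. Besides E2f7 these were Ccne1 (9.22 FPKM), Pole (2.06 FPKM) and Tk1 (21.7 FPKM). H3.1 also had the most Mki67 of the differentiated libraries, 8.09 FPKM, and the part this plays was not tested. The others were Cdk2 in H3mm13 growth (30.7 FPKM), Cdc6 (14.9 FPKM) and Rrm1 (115 FPKM) in H3t growth, and Cdt1 in H3mm7 after differentiation (12.7 FPKM).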

How the results depend on the processing

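The 8 E2F differences were recomputed under 18 other settings: pseudocounts of 0.1 and 0.01 FPKM, no filter or a mean of at least 5 FPKM, quantile and median-of-ratios scaling, limma without trend and robust variance, the line as a replicate block, and each line left out. Each of the 144 values kept its direction and its side of the threshold. The differences ranged from -1.67 to -1.48 for E2f1, 1.12 to 1.44 for E2f2, -0.79 to -0.67 for E2f3, 0.14 to 0.23 for E2f4, -0.42 to -0.34 for E2f5, 0.08 to 0.19 for E2f6, -4.75 to -3.21 for E2f7 and -1.86 to -1.52 for E2f8. With the line as a block, 4058 genes were higher and 3644 lower, against 3336 and 3083 without it, E2f4 had an adjusted p of 0.0679 and E2f6 of 0.171. Counts over the pathway lists moved by over 1.5 times in 15 of 360 values, 9 of them because Cdkn1b lost its call. Depth is unknown, so levels under about 1 FPKM, such as E2f7 after differentiation, cannot be given a counting error.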
